A study of Macaca mulatta with 24 samples.

Results

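Immediate early genes are switched on within minutes of a signal or an injury to the cell, and 10 of them were looked up on microarrays of rhesus monkey endometrium, the lining of the uterus. Probes were taken where the gene name in the scanner files equalled JUN, JUNB, JUND, FOS, FOSB, EGR1, IER2, IER3, ATF3 or DUSP1. This gave 6 of the 20217 probes, for 5 of the 10 symbols: 2 probes for IER3 and 1 each for FOS, ATF3, DUSP1 and EGR1. JUN and JUNB carried no such name but were reached by their gene ID, with 1 probe each, listed in the files as LOC716452 and LOC717837. A further probe, for LOC722417, is described in the files as similar to the fosB protein. These 3 additional probes are reported beside the others and are always named as such, and JUND and IER2 were matched to no probe. Endometrial total RNA had been taken on day 2, 4 or 6 after ovulation, either from mated cycles in which conception was proven or from normo-ovulatory cycles without mating, in proven fertile rhesus monkeys. The sample descriptions count the days from ovulation in both cycle types, while the source names of the conception samples count them from fertilization. Each of these 6 groups held 4 arrays, numbered here as replicates 1 to 4, and the non-mated cycles were the comparison group on each day. The labels give no age and no treatment other than mating, and leave unsaid whether each array stands for its own animal. P-values below rest on array-to-array spread alone, and that spread may be technical.

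FOS, FOSB, JUN, JUNB and JUND encode the leucine zipper proteins that pair up as the transcription factor AP-1, and ATF3 is a related stress-induced factor that can pair with JUN proteins. EGR1 is a zinc finger factor driven by serum response factor. IER2 and IER3 are fast-response genes of other kinds, and IER3 protein modulates survival signalling. DUSP1 is a phosphatase that removes the activating phosphates of MAP kinases and so closes the loop that induces the family. Their transcripts are short-lived, and they are known to be induced by growth factors, inflammation and mechanical or ischaemic stress, including the handling of tissue before RNA is fixed.

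The 2 IER3 probes turned out to carry identical 60-base sequences, so they are the same measurement made at separate spots. The array files leave both unmapped. Bases 26 to 55 are shown because they hold, in capitals, the polyadenylation signal AATAAA and the AU-rich pentamer ATTTA, a motif known from short-lived messages, which do not overlap each other. The matching stretch of the JUN probe, its bases 31 to 60, is shown because that probe was reached by gene ID and not by name.
IER3: tctgtgaacacaAATAAActtgATTTActg
JUN: tgggattgtatcaagtggcatgtgctgtga
On the strand of the probe as given in the files, AATAAA was found in 12.8% and ATTTA in 8.91% of the 20217 probes, so neither is particular to IER3. On the rheMac2 build the files place the FOS probe at chr7:138397681-138397740 on the plus strand and the ATF3 probe at chr1:157792810-157792869 on the minus strand. DUSP1 lies at chr6:169160514-169160573 on the minus strand and EGR1 at chr6:134885161-134885220 on the plus strand. The JUN probe is placed at chr1:61628538-61628597 on the minus strand and the JUNB probe at chr19:12454905-12454964 on the plus strand, and the fosB-like probe is unmapped. The files give no exon or UTR for these positions, and no annotation of that build was used here. The level given throughout is the log2 background-corrected signal less the array's own 75th percentile, so 0 is the signal that 75% of probes do not exceed. Levels of different probes are not compared with each other.

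Of the 24 arrays, 3 non-mated arrays were weak, with under 40% of probes well above background: day 2 replicate 3 with 4.33%, day 4 replicate 1 with 37.9% and day 4 replicate 2 with 21.8%. The other 21 arrays had 53.3% to 71.5%. On non-mated day 2 replicate 3 the probes for ATF3, DUSP1, EGR1, JUN and LOC722417 all read -0.28, a value at which none of them was well above background. Differences and correlations are therefore given for all 24 arrays and for the 21 without the weak ones, and a value printed for 1 of these sets alone names it. Epithelial (KRT19, CLDN3, CLDN4, PAX8) and stromal (DCN, COL3A1, PDGFRA, PDGFRB, THY1, VIM) markers were measured on every array, with log2 summed levels of 4.73 to 5.78 and 5.86 to 7.67 on the 21 arrays. In whole tissue, fewer cells of a type and less RNA per cell cannot be told apart. A probe was tested where it was well above background on at least 3 of the 4 arrays of at least 1 group, which kept 12780 probes. Of the 6 immediate early probes 5 passed, for 4 genes, and so did the 3 additional probes. EGR1 did not pass. No spot of any of these probes was saturated or dropped.

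**Figure D1:**
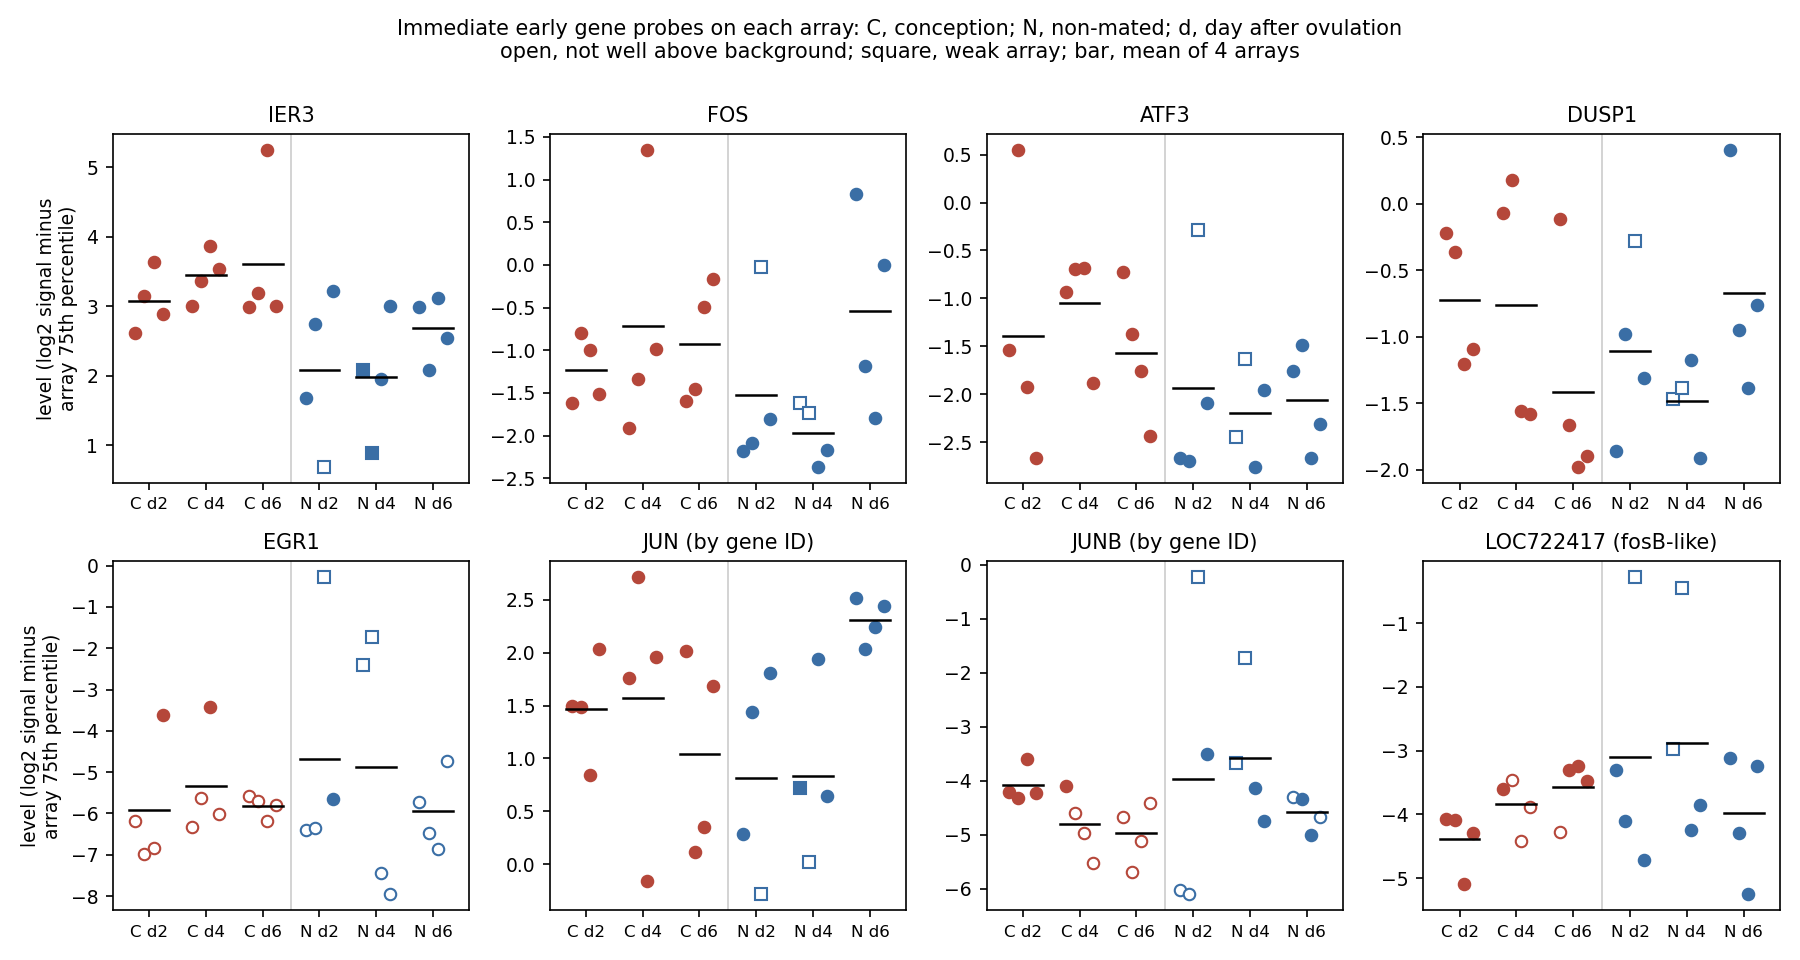
Level of each immediate early probe on the 24 arrays, by cycle type and day, with the mean of 4 arrays as a bar; for IER3 the probe A_01_P000583 is plotted. IER3 lies highest in the conception groups, with 5.25 on conception day 6 replicate 3, and the 3 weak arrays (squares) are the highest non-mated points for EGR1 and LOC722417.

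IER3 was detected on 23 of 24 arrays and, over all 24 arrays, was the member with the largest difference between cycle types averaged over the days. Without the weak arrays ATF3 was, at 0.96 against 0.80 and 0.82 for the IER3 probes. In conception cycles its level on replicates 1 to 4 (probe A_01_P000583) was 2.62, 3.14, 3.63 and 2.88 for day 2, 3.00, 3.36, 3.86 and 3.54 for day 4 and 2.99, 3.19, 5.25 and 3.00 for day 6. In non-mated cycles it was 1.67, 2.74, 0.69 (weak array) and 3.22 for day 2, 2.08 and 0.89 (both weak), 1.96 and 3.01 for day 4 and 2.99, 2.08, 3.12 and 2.54 for day 6. The ranges of the cycle types overlapped on every day, and conception day 6 replicate 3 stood above all other arrays. In each conception group replicate 3 read highest, and these arrays shared slide 7, which held no non-mated array. Group means ran from 3.61 ± 1.10 (SD, n = 4) at conception day 6 through 3.44 ± 0.36 and 3.07 ± 0.43 at conception days 4 and 2 to 2.68 ± 0.47, 2.08 ± 1.13 and 1.99 ± 0.87 at non-mated days 6, 2 and 4. Neighbours in that order differed by at most 0.86 of the larger of their SDs. The 2 probes of identical sequence differed by 0.10 ± 0.068 (SD over 24 arrays) and correlated at r = 0.998 over the arrays, a reading of technical precision only.

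Averaged over the days, the IER3 log2 difference, conception minus non-mated, was 1.12 ± 0.32 (SE) for A_01_P000583 and 1.10 ± 0.31 for A_01_P015343, a 2.18-fold and a 2.14-fold higher level. With limma and Benjamini-Hochberg adjustment over the 12780 probes the adjusted p was 0.430 for both, so the difference did not pass the threshold of 0.05. On the 21 arrays it was 0.80 ± 0.29 and 0.82 ± 0.29, with limma adjusted p = 0.532 and 0.528. By day the difference for A_01_P000583 was 0.99 ± 0.55 at day 2, 1.45 ± 0.55 at day 4 and 0.93 ± 0.55 at day 6, with limma adjusted p-values of 0.788, 0.682 and 1.00, and without the weak arrays it was 0.52, 0.96 and 0.93. The day 6 value was 0.38 without conception day 6 replicate 3, and the day 2 value 0.52 without non-mated day 2 replicate 3 alone. The limma interaction of cycle type with day had an adjusted p of 0.986. Within scan days 1 and 2 in turn, day 2 gave 1.30 and 0.67, day 4 gave 1.22 and 1.69, and day 6 gave 1.52 and 0.33. On slide 1, the slide that held day 6 arrays of both cycle types, the day 6 difference was 0.10, and on slide 4 the day 2 difference was 0.14. On slides 2 and 3, where the non-mated array was a weak one, the day 4 difference was 0.92 and 2.47. For arrays scanned on day 1, slide and cycle type cannot be told apart, since no slide held both.

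Several measures of the arrays and of cell types moved with IER3 within groups, none of them past 0.05 after adjustment over the 70 relations. Over the 24 arrays its deviation went with the share of probes above background at r = 0.63 (permutation p = 0.0069, 0.115 adjusted) and rho = 0.48 (p = 0.039, 0.236 adjusted). With the summed epithelial markers it went at r = 0.62 (permutation p = 0.012, 0.119 adjusted) and rho = 0.59 (p = 0.0083, 0.116 adjusted). These values were 0.39 and 0.38 without the 2 farthest arrays, and 0.27 and 0.24 over the 21 arrays. With the stromal markers r was -0.34 over the 24 arrays and -0.62 over the 21 (permutation p = 0.044, 0.553 adjusted), or -0.32 without the 2 farthest. Of the 4 epithelial markers tested 4, 4 and 2 were higher in conception cycles at days 2, 4 and 6, and 4, 1 and 2 without the weak arrays. Their part in the IER3 difference was not tested.

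FOS, the partner of JUN proteins in AP-1, was detected on 21 arrays. Its level in conception cycles was -1.62, -0.80, -1.001 and -1.52 for day 2, -1.91, -1.33, 1.35 and -0.99 for day 4 and -1.59, -1.45, -0.50 and -0.16 for day 6. In non-mated cycles it was -2.18, -2.08, -0.024 (weak) and -1.80 for day 2, -1.62 and -1.73 (both weak), -2.36 and -2.17 for day 4 and 0.83, -1.18, -1.80 and 0.0052 for day 6. At conception day 4 a single array led, replicate 3 with 1.35 above the other 3 at -0.99 or lower. At non-mated day 6 replicates 1 and 4, of scan day 2, lay above replicates 2 and 3, of scan day 1. Group means ranged from -0.53 ± 1.18 (SD, n = 4) at non-mated day 6 to -1.97 ± 0.35 at non-mated day 4, and neighbours in the order differed by at most 0.44 of the larger SD. On the 21 arrays, conception day 2 at -1.23 stood 0.79 above non-mated day 2, which is 1.99 of the larger SD.

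The log2 difference of FOS between cycle types was 0.29 ± 0.63 (SE) at day 2, 1.25 ± 0.63 at day 4 and -0.39 ± 0.63 at day 6, with limma adjusted p-values of 0.883, 0.682 and 1.00. Without the weak arrays it was 0.79 at day 2 and 1.54 at day 4, and the groups then did not overlap on either day, as for 2.83% and 13.9% of all probes. Without conception day 4 replicate 3 the day 4 value was 0.56. The day 6 value became 0.065 without non-mated day 6 replicate 1, and on slide 1 alone it was -2.35. Within scan days 1 and 2 in turn, day 2 gave -0.35 and 0.93, day 4 gave 2.45 and 0.052, and day 6 gave 1.16 and -1.94. Within non-mated cycles FOS was 1.44 ± 0.63 higher at day 6 than at day 4 (limma adjusted p = 0.782), and 1.73 without the weak arrays (adjusted p = 0.999).

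ATF3, the stress-induced factor, was also detected on 21 arrays. Conception levels were -1.54, 0.55, -1.92 and -2.66 for day 2, -0.94, -0.69, -0.69 and -1.89 for day 4 and -0.72, -1.37, -1.75 and -2.43 for day 6. Non-mated levels were -2.66, -2.69, -0.28 (weak) and -2.09 for day 2, -2.44 and -1.64 (both weak), -2.75 and -1.96 for day 4 and -1.76, -1.48, -2.66 and -2.31 for day 6. Conception day 2 replicate 2 was the highest of all arrays, with replicate 1 next in its group. At conception days 2 and 6 replicates 1 and 2, of scan day 2, both read above replicates 3 and 4, of scan day 1. The group means lay between -1.05 ± 0.57 (SD, n = 4) at conception day 4 and -2.20 ± 0.50 at non-mated day 4, and neighbours differed by at most 0.32 of the larger SD.

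The ATF3 difference averaged over the days was 0.72 ± 0.34 (SE), with a limma adjusted p of 0.674. On the 21 arrays it was 0.96 ± 0.34, with an adjusted p of 0.528. At days 2, 4 and 6 it was 0.54, 1.15 and 0.49, and without the weak arrays 1.09, 1.31 and 0.49, none of which passed the test. Within scan days 1 and 2 in turn, day 2 gave -1.11 and 2.18, day 4 gave 1.07 and 1.23, and day 6 gave -0.020 and 0.99. At day 4 the groups did not overlap on the 21 arrays, as for 13.9% of all probes. The day 2 value was -0.11 without conception day 2 replicate 2, and the day 6 value 0.20 without conception day 6 replicate 1. Conception day 2 replicate 2 also had the highest summed level of smooth muscle markers (ACTG2, DES and MYH11, the 3 of 5 listed markers that were tested), 7.46 on the log2 scale, against 1.76 to 4.90 on the other 23 arrays. Across the 21 arrays the deviation of ATF3 from its group mean went with that of the smooth muscle markers at r = 0.67 (permutation p = 0.055) and rho = 0.55 (p = 0.032), or p = 0.553 and 0.569 adjusted over 70 relations, and at r = 0.33 without the 2 arrays farthest from the median of the markers. Over the 24 arrays r was 0.58 (permutation p = 0.058, 0.158 adjusted). The part of smooth muscle in the ATF3 values was not tested.

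**Figure D2:**
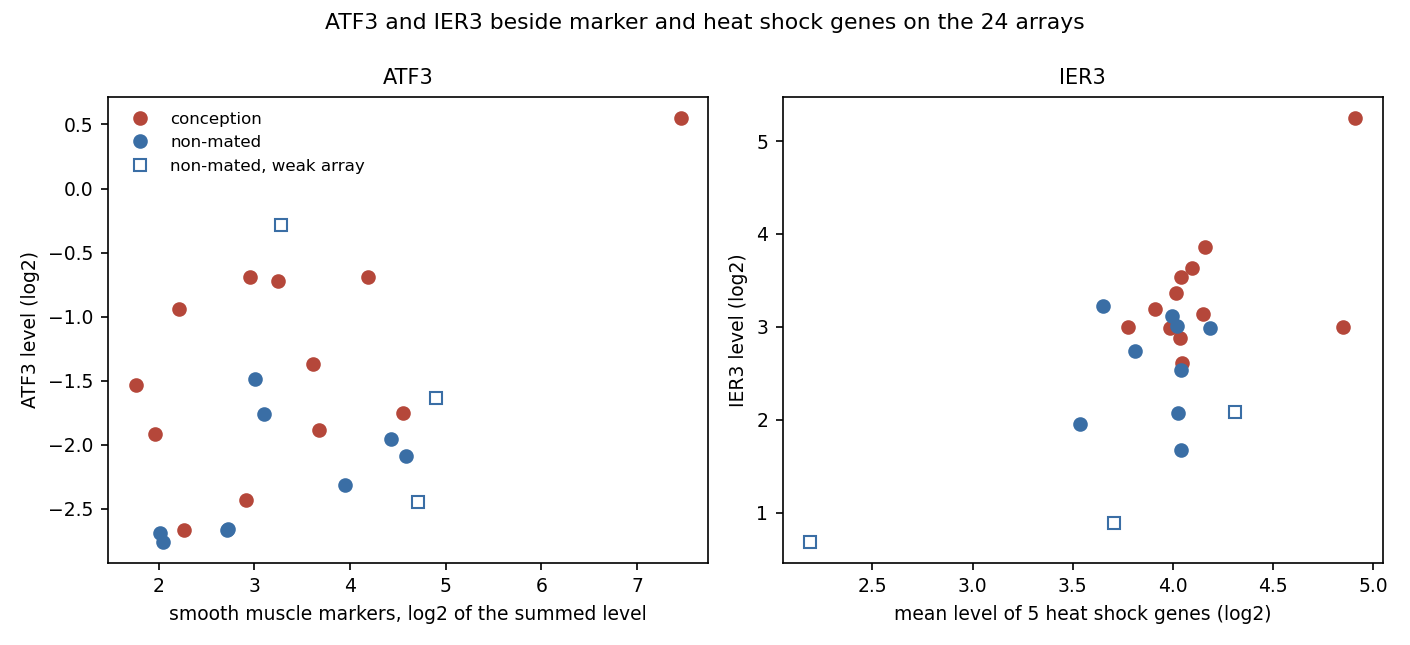
Left, ATF3 level against the log2 summed level of 3 smooth muscle markers on the 24 arrays; right, IER3 level against the mean level of 5 heat shock genes. Conception day 2 replicate 2 stands at 7.46 and 0.55 on the left, and conception day 6 replicate 3 at 4.91 and 5.25 on the right.

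DUSP1, the MAP kinase phosphatase, showed no common direction over the days. Its conception levels were -0.22, -0.37, -1.21 and -1.09 for day 2, -0.072, 0.18, -1.56 and -1.58 for day 4 and -0.11, -1.66, -1.98 and -1.90 for day 6. Its non-mated levels were -1.86, -0.98, -0.28 (weak) and -1.31 for day 2, -1.47 and -1.38 (both weak), -1.17 and -1.91 for day 4 and 0.40, -0.95, -1.38 and -0.76 for day 6. In each conception group replicates 1 and 2, of scan day 2, both read above replicates 3 and 4, of scan day 1. At day 6 replicate 1 stood well above the other 3. Group means ranged from -0.67 ± 0.76 (SD, n = 4) at non-mated day 6 to -1.49 ± 0.31 at non-mated day 4, with neighbours at most 0.37 of the larger SD apart. The difference between cycle types was 0.39 ± 0.50 (SE) at day 2, 0.73 ± 0.50 at day 4 and -0.74 ± 0.50 at day 6, with limma adjusted p-values of 0.815, 0.685 and 1.00, and 0.66, 0.79 and -0.74 without the weak arrays. The day 6 value moved to -1.17 when conception day 6 replicate 1 was left out, and to -0.38 when non-mated day 6 replicate 1 was. The day 4 value was 0.41 without conception day 4 replicate 2, and within scan days 1 and 2 it was -0.028 and 1.48. At day 2 those values were -0.35 and 1.13, and at day 6 -0.77 and -0.71.

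EGR1 was well above background on 3 of 24 arrays, with levels of -3.61 on conception day 2 replicate 4, -3.42 on conception day 4 replicate 3 and -5.66 on non-mated day 2 replicate 4. The array of the second value is the one with the highest FOS level. On the other 18 arrays that were not weak EGR1 read between -7.96 and -4.73 and was not well above background, so it is described without a test or a fold.

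JUN, reached by gene ID, was the only one of the 7 tested genes whose groups did not overlap at day 6. Its conception levels were 1.495, 1.48, 0.85 and 2.03 for day 2, 1.76, 2.71, -0.16 and 1.96 for day 4 and 2.02, 0.11, 0.35 and 1.68 for day 6. Its non-mated levels were 0.28, 1.44, -0.28 (weak) and 1.81 for day 2, 0.72 and 0.022 (both weak), 1.94 and 0.65 for day 4 and 2.52, 2.03, 2.24 and 2.44 for day 6. At non-mated day 6 all 4 arrays lay within 0.48 of each other, with a mean of 2.31 ± 0.22 (SD, n = 4), and above all other non-mated arrays. Among the 21 arrays JUN was lowest on conception day 4 replicate 3, the array on which FOS was highest. The order of the means ran from non-mated day 6 through conception days 4, 2 and 6 at 1.57 ± 1.22, 1.46 ± 0.48 and 1.04 ± 0.95 to non-mated days 4 and 2 at 0.83 ± 0.80 and 0.81 ± 0.98, with neighbours at most 0.60 of the larger SD apart.

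At day 6 JUN was 1.27 ± 0.58 (SE) lower on the log2 scale in conception cycles, a difference of -1.27 with a limma adjusted p of 1.00, and of 0.495 without the weak arrays. The groups of 4.29% of all probes did not overlap on that day either. Leaving out each array in turn gave -1.59 to -0.96. It was -1.12 and -1.41 within scan days 1 and 2 and -1.45 on slide 1. At days 2 and 4 the difference was 0.65 ± 0.58 and 0.74 ± 0.58, and 0.29 and 0.27 without the weak arrays, and within scan days 1 and 2 in turn, day 2 gave 0.68 and 0.63 and day 4 gave -0.40 and 1.87. The day 4 value was 0.35 without conception day 4 replicate 2 and 1.31 without replicate 3, and the day 2 value 0.98 without non-mated day 2 replicate 4. Within non-mated cycles JUN was 1.496 ± 0.58 higher at day 6 than at day 2 and 1.47 ± 0.58 higher than at day 4, with limma adjusted p-values of 0.760 and 0.782, and 1.13 and 1.01 without the weak arrays. Non-mated day 6 overlapped with neither of the earlier days, and this held for 2.96% and 2.56% of all probes. The interaction of cycle type and day had a limma adjusted p of 0.986, and of 0.967 without the weak arrays.

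JUNB, reached by gene ID, was dim, and was well above background on 10 of 24 arrays. At conception day 2, where all 4 arrays detected it, the levels were -4.21, -4.33, -3.59 and -4.23. At conception day 6, where none did, they were -4.68, -5.69, -5.12 and -4.41. With the day 6 readings raised to the lowest signal read above background on their arrays, the conception day 2 mean was 1.10-fold higher. That signal belongs to the whole array and is not a detection limit of JUNB, so the fold is no firm bound. Conception days 2 and 6 did not overlap, as for 7.72% of all probes. The limma adjusted p was 0.998, and 0.375 without the weak arrays. JUNB passed the filter through conception day 2 alone. Comparisons of that group with others were thus favoured by the filter and are description only. The difference between cycle types at day 2 was -0.12 on all arrays and 1.12 ± 0.50 without the weak ones (limma adjusted p = 0.999). On the non-mated side of it only 1 array was above background. The weak array, non-mated day 2 replicate 3, had read -0.24 without being above background. At day 4 the difference was -1.23, and -0.36 without the weak arrays, with 1 of the 4 conception arrays above background. The day 6 difference is not described here, since no conception array was above background on that day. The fosB-like probe LOC722417 was detected on 17 arrays. At day 4 it was above background on 1 of the 4 conception arrays and 2 of the 4 non-mated ones. On weak arrays it read -0.28 at non-mated day 2 and -0.46 at non-mated day 4 without being above background. Its difference was -1.28, -0.96 and 0.39 at days 2, 4 and 6, and -0.34, 0.21 and 0.39 without the weak arrays, with no value past the test. Its deviation from the group mean correlated with the share of probes above background at r = -0.90 over the 24 arrays (permutation p = 0.00047, 0.033 adjusted over 70 relations) and rho = -0.78 (p = 0.0017, 0.108 adjusted), and at -0.77 without the 2 farthest arrays. Over the 21 arrays r was -0.66 (permutation p = 0.046, 0.553 adjusted).

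**Figure D3:**
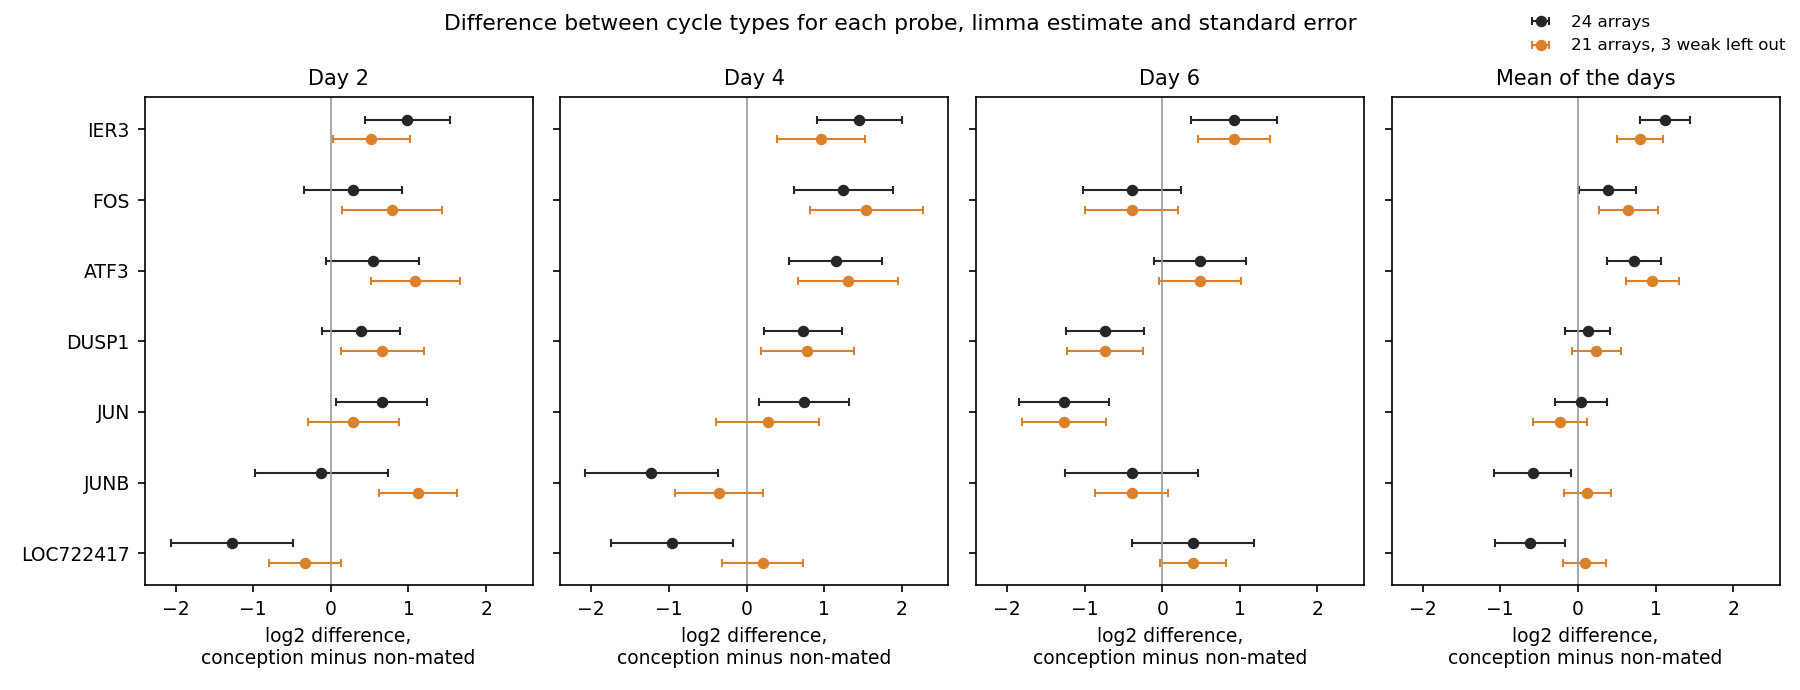
Log2 difference, conception minus non-mated, with its limma standard error, for 7 probes by day and for the mean of the days, on 24 arrays (black) and on the 21 without the weak ones (orange); for IER3 the probe A_01_P000583 is plotted. IER3 lies above 0 in all panels, and JUN lies at -1.27 at day 6. The JUNB point at day 6, and so that for its mean, rests on a conception group that was not above background.

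Counted together, 0 of the 5 tested member probes passed the limma adjusted p of 0.05 in any of the 11 comparisons, with or without the weak arrays, and 0 of the 3 additional probes did. Few probes on the arrays passed at all. Between cycle types 0% of the 12780 probes passed at day 2 and at day 4, 0.00782% at day 6 and 0.00782% for the mean of the days, and without the weak arrays 0%, 0%, 0.0235% and 0.0156%. Between days of conception cycles 0% passed for day 4 against day 2, 0% for day 6 against day 4 and 0.0156% for day 6 against day 2, and without the weak arrays 0.00782%, 0% and 1.67%. Between days of non-mated cycles and for the interaction 0% passed in both fits. At a limma unadjusted p under 0.05, of the 8 probes 0 passed at day 2, 2 at day 4 (both of IER3), 1 at day 6 (JUN) and 3 for the mean of the days (IER3 by both probes, and ATF3), against 2.52%, 6.18%, 2.38% and 6.85% of all probes. On the 21 arrays it was 1 at day 2 (JUNB, which passed the filter through conception day 2 alone) and 1 at day 4 (FOS). On these arrays it was 1 at day 6 (JUN) and the same 3 for the mean, against 1.21%, 5.46%, 9.27% and 7.67% in that order. Between days of conception cycles it was 0 for day 4 against 2, day 6 against 4 and day 6 against 2, beside 2.56%, 0.649% and 4.2% of all probes, and again 0 without the weak arrays, beside 8.37%, 5.14% and 15.2%. Between days of non-mated cycles it was 0 for day 4 against 2, 2 for day 6 against 4 (JUN and FOS) and 1 for day 6 against 2 (JUN), beside 3.75%, 3.57% and 3.29%. Without the weak arrays those counts were 0, 1 and 1 (FOS in both), beside 2.7%, 1.58% and 1.81%. For the interaction it was 1 (JUN) beside 1.37%, and 0 beside 2.64% without the weak arrays. Between cycle types the groups of 0, 0 and 1 of the 8 probes did not overlap at days 2, 4 and 6, beside 1.4%, 2.5% and 4.29% of all probes. Without the weak arrays it was 1, 2 and 1, beside 2.83%, 13.9% and 4.29%. Between non-mated day 6 and days 2 and 4 this held, without the weak arrays, for JUN and FOS, beside 5.02% and 14.3%. The IER3 probes share their sequence, so these are not separate genes. The median difference of the 8 probes was 0.46, 0.94 and 0.0017 at days 2, 4 and 6, beside -0.16, 0.013 and -0.0024 for all probes, and without the weak arrays 0.63, 0.87 and 0.0017 beside 0.016, 0.010 and -0.0024. At day 6, 4 of the 8 were higher and 4 lower. Both IER3 probes were among the higher ones, and JUNB, among the lower ones, had no conception day 6 array above background. With IER3 counted once (A_01_P000583), the middle of the 7 genes was DUSP1 at day 2 (0.39), JUN at day 4 (0.74) and FOS at day 6 (-0.39). Without the weak arrays it was DUSP1 at days 2 and 4 (0.66 and 0.79), and again FOS at day 6. The median of all probes at day 2 became 0.15 with normexp background correction and 0.49 with quantile normalization, and at day 4 0.42 with the latter.

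Between arrays of the same group the members were mostly not high or low together, with ATF3 and DUSP1 the closest pair. For each gene the deviation of each array from its group mean was taken, and genes were compared in pairs. Among the 6 pairs of IER3, FOS, ATF3 and DUSP1 the median Pearson r was -0.0032 over the 24 arrays, with a range from -0.38 to 0.54 and 2 of 6 above 0. On the 21 arrays it was 0.061, with a range from -0.29 to 0.46 and 4 of 6 above 0. The median over all pairs of tested probes was 0.028 with quartiles of -0.36 and 0.40, and -0.0010 with quartiles of -0.25 and 0.25 without the weak arrays. Those quartiles describe single pairs, so they give no range against which a median of 6 pairs could be read. Within scan days 1 and 2 the median over the 6 pairs was 0.10 and 0.29, with the slide also subtracted it was 0.16, and leaving out each array in turn gave -0.12 to 0.063. No value over all pairs is given for these settings. With JUN, JUNB and the fosB-like probe added, the median over 21 pairs was 0.088 on all arrays and 0.076 without the weak ones.

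ATF3 and DUSP1 were the pair of members that went together most. Their r was 0.54 (permutation p = 0.0076, 0.046 adjusted over the 6 pairs and 0.141 over the 21 pairs with the additional probes) and rho 0.52 (p = 0.021, 0.125 adjusted) over the 24 arrays. Without the 2 arrays farthest from the median of ATF3, r was 0.51. In conception cycles both genes went partly with the scan day. Replicates 1 and 2, of scan day 2, read above replicates 3 and 4, of scan day 1, for DUSP1 on each day. For ATF3 they did so at days 2 and 6 but not at day 4. The part of the scan day in the r of ATF3 and DUSP1 was not tested. Over the 21 arrays the r of this pair was 0.46 (p = 0.040, 0.242 adjusted) and rho 0.44 (p = 0.073, 0.263 adjusted), and r was 0.51 without the 2 farthest. FOS and IER3 gave r = -0.0052 on all arrays and 0.35 without the weak ones (p = 0.090, 0.271 adjusted), and rho of 0.12 and 0.38 (p = 0.088, 0.263 adjusted), with r = 0.29 without the 2 farthest. DUSP1 and IER3 went in opposite directions at r = -0.38 and -0.29, which passed in neither set (adjusted p = 0.248 and 0.591). FOS and JUN, the AP-1 partners, gave r = -0.48 on all arrays (p = 0.065, 0.151 adjusted over 21 pairs) and -0.37 without the weak ones (p = 0.254, 0.779 adjusted). Their r was -0.14 and -0.089 without the 2 farthest arrays, so the value rested on those arrays. The highest value without the weak arrays was that of DUSP1 and JUN, r = 0.59 (p = 0.015, 0.323 adjusted over 21 pairs) and rho 0.52 (p = 0.043, 0.481 adjusted).

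**Figure D4:**
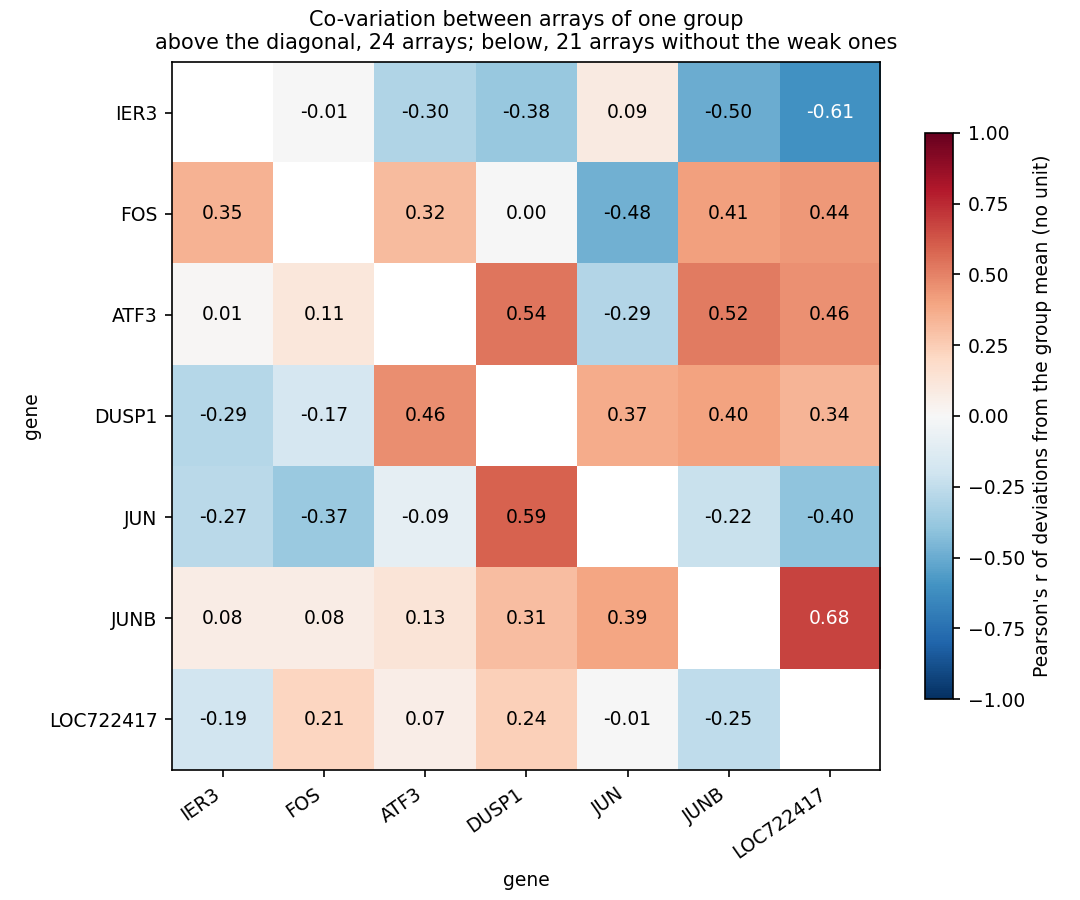
Pearson's r of the deviations from the group mean for each pair of 7 genes, on 24 arrays above the diagonal and on the 21 without the weak ones below it. Positive and negative values are mixed on both sides of the diagonal. Above it they run from -0.61 for IER3 with LOC722417 to 0.68 for JUNB with LOC722417, and below it from -0.37 to 0.59. On the 21 arrays these 2 pairs gave -0.19 and -0.25. Without the 2 farthest of the 24 arrays they gave -0.66 and 0.23. Neither JUNB nor LOC722417 was above background on a weak array.

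Read array by array, IER3, FOS, ATF3 and DUSP1 lay all above their group means on 3 of the 21 arrays and all below on 2. On 8 arrays 1 of the 4 lay above, on 6 arrays 2 did, and on 2 arrays 3 did. No counts for other sets of 4 genes stand beside these. They therefore do not tell whether the members shared a side more or less often than other genes. On those 21 arrays the ones with all 4 above were conception day 2 replicate 2, non-mated day 2 replicate 4 and non-mated day 6 replicate 1. On the last of these JUN, JUNB and the fosB-like probe were above as well, with deviations of 1.37 for FOS, 1.08 for DUSP1, 0.86 for LOC722417, 0.31 for IER3, 0.29 for ATF3, 0.28 for JUNB and 0.21 for JUN. The largest single deviations were not shared in size by the other genes. FOS deviated by 2.07 on conception day 4 replicate 3, where IER3 lay at 0.42, ATF3 at 0.36, DUSP1 at -0.80 and JUN at -1.73. IER3 deviated by 1.64 on conception day 6 replicate 3, where FOS lay at 0.43, ATF3 at -0.18, DUSP1 at -0.57 and JUN at -0.69. ATF3 deviated by 1.94 on conception day 2 replicate 2, where FOS lay at 0.44, DUSP1 at 0.36, IER3 at 0.075 and JUN at 0.018. At non-mated day 4 only 2 arrays were left, so their deviations mirror each other. With group means taken over all 24 arrays, the 4 genes lay all above on 2 arrays, conception day 2 replicate 2 and non-mated day 6 replicate 1, and all below on 2. On 9, 7 and 4 arrays 1, 2 and 3 of them lay above, and non-mated day 2 replicate 4 was then among those with 1.

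**Figure D5:**
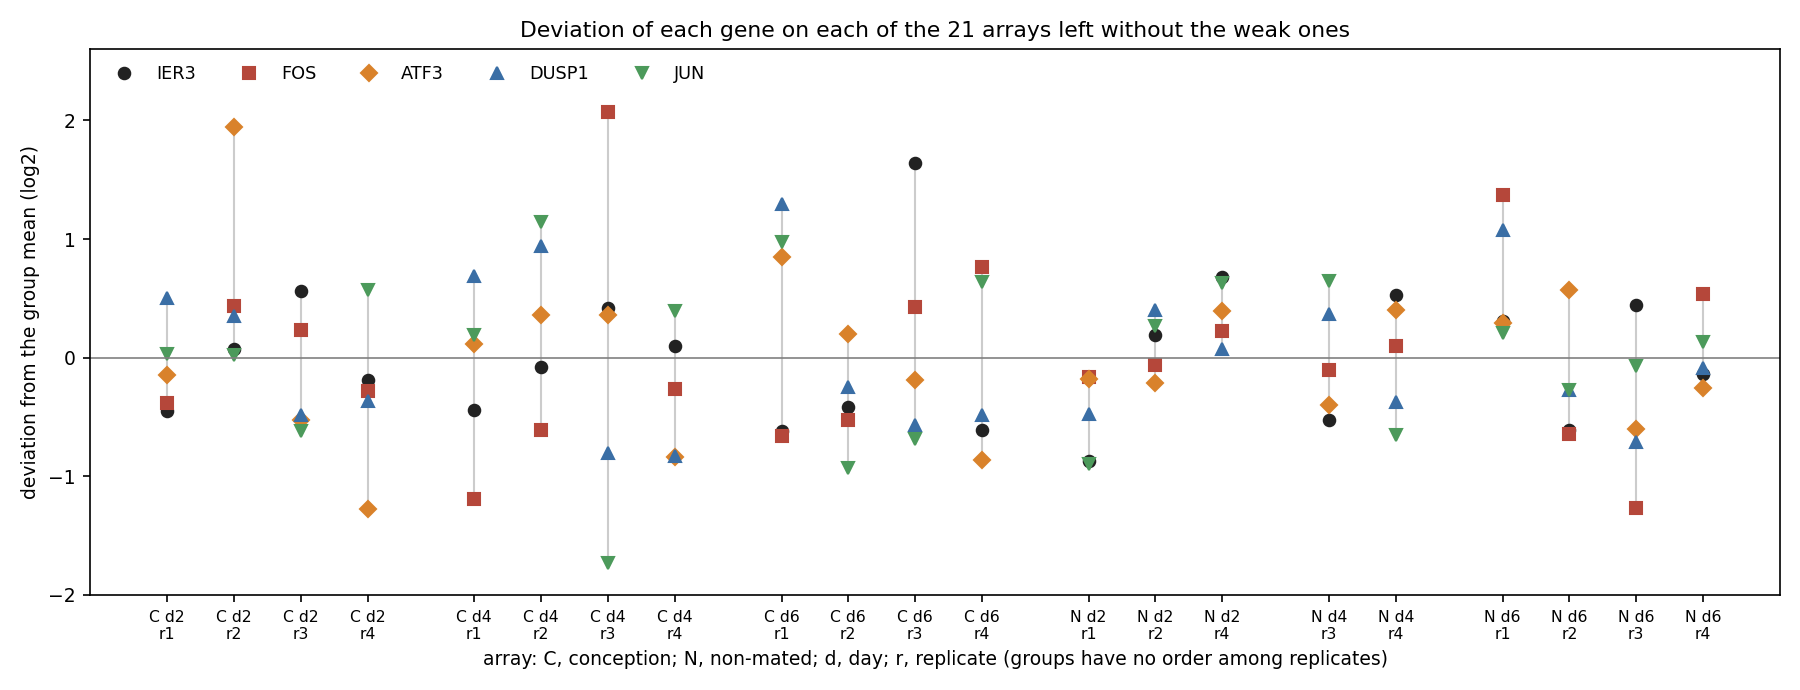
Deviation of IER3, FOS, ATF3, DUSP1 and JUN from the group mean (log2) on each of the 21 arrays without the weak ones, with a grey line from the lowest to the highest gene of an array. Genes spread to both sides of 0 on most arrays, and FOS at 2.07 and JUN at -1.73 stand farthest apart, on conception day 4 replicate 3.

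On the 21 arrays the single genes were nevertheless among the more variable ones, and less so on all 24. The pooled SD within groups, on the 21 arrays, was 0.91 for FOS, 0.82 for JUN, 0.80 for ATF3, 0.74 for DUSP1, 0.69 for JUNB, 0.69 for IER3 and 0.63 for LOC722417, beside a median of 0.52 over all tested probes. FOS had a larger SD than 85.9% of tested probes and LOC722417, the least variable of the 7, than 64.8%. On all 24 arrays the SDs were 0.71 for DUSP1 to 1.31 for JUNB beside a median of 0.76. DUSP1 then exceeded 44.2% of probes, IER3 53.9%, JUN 58.5%, ATF3 60.7%, FOS 65.7%, LOC722417 79.8% and JUNB 85.7%. JUNB was above background on 10 of the 24 arrays and LOC722417 on 17, so their SDs take in readings that were not above background. The tested probes they are set beside were not matched for level.

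Heat shock genes were measured as a separate class of stress-induced messages, and all 5 that were found on the array were tested. Their mean level was 4.91 on conception day 6 replicate 3 and 4.85 on conception day 6 replicate 4, against 3.54 to 4.19 on the other 19 arrays that were not weak. The deviation of FOS correlated with theirs at r = 0.52 (permutation p = 0.0056) and rho = 0.64 (p = 0.0035) over the 21 arrays, and at r = 0.53 without the 2 farthest, but adjusted over 70 relations p was 0.281 and 0.248, and over all 24 arrays r was -0.044. For IER3 r was 0.42 over the 21 arrays (permutation p = 0.314, 0.739 adjusted) and 0.11 without the 2 farthest, and 0.58 over all 24 (permutation p = 0.057, 0.158 adjusted). Leukocyte markers, 5 of 8 listed ones tested, went with FOS at r = 0.53 (permutation p = 0.076, 0.553 adjusted) and rho = 0.69 (p = 0.011, 0.395 adjusted) over the 21 arrays, and at r = 0.53 over the 24 (permutation p = 0.014, 0.119 adjusted). Their part in the FOS values was not tested, nor was that of handling, on which the labels give no measure. Between cycle types 5 of 5 heat shock genes were higher at day 2, 4 of 5 at day 4 and 4 of 5 at day 6, with medians of 0.61, 0.11 and 0.44 beside -0.16, 0.013 and -0.0024 for all probes. HSPB1, a small heat shock protein, differed by 0.97 ± 0.45 (SE) at day 2 (limma adjusted p = 0.788) and DNAJA1, an HSP40 co-chaperone, by 0.61 ± 0.38 (adjusted p = 0.788). On the 21 arrays 4 of 5 were higher on each day, the medians at days 2 and 4 were 0.16 and 0.10, and HSPB1 differed by 0.83 and DNAJA1 by 0.26. None of the 5 passed the test in any comparison.

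Other genes of the same response were followed in fixed lists, of which 0 genes passed the adjusted test in any comparison. Their median differences stand beside -0.16, 0.013 and -0.0024 for all probes at days 2, 4 and 6. Of 6 AP-1 and ATF partners on the array 3 were tested, with 1, 2 and 2 higher in conception cycles on these days and medians of -0.29, 0.029 and 0.17, and -0.057 and 0.15 at days 2 and 4 without the weak arrays. ATF4, the effector of the integrated stress response, differed by 0.94 ± 0.46 (SE) at day 2 (limma adjusted p = 0.788), and by 0.40 without the weak arrays. ATF2, a partner of JUN, differed by 0.68 ± 0.36 at day 4 (adjusted p = 0.682). Of 7 other immediate early transcription factors 3, 5 and 3 were higher, with medians of -0.0077, 0.14 and -0.41, and 0.0053 and 0.23 at days 2 and 4 without the weak arrays. KLF4, a zinc finger factor, differed by -0.90 ± 0.55 at day 6 (adjusted p = 1.00), and EGR3 by -1.61 ± 1.00 at day 4 (adjusted p = 0.682) and by 0.28 without the weak arrays.

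Feedback regulators and mRNA decay factors, which shut the response off, were measured for 14 genes, with 5, 6 and 4 higher at days 2, 4 and 6, and 10, 7 and 4 without the weak arrays. Their medians were -0.18, -0.13 and -0.26, and 0.081 and 0.061 at days 2 and 4 without the weak arrays. TNFAIP3, which limits NF-kappa-B signalling, differed by -1.61 ± 0.76 (SE) at day 6 (limma adjusted p = 1.00, and 0.544 without the weak arrays). SOCS3, an inhibitor of cytokine signalling, was named for its interaction of cycle type and day, with a limma adjusted p of 0.986. Of 11 induced effectors 9 were higher at day 2, 7 at day 4 and 3 at day 6, with median differences of 0.56, 0.65 and -0.10, and 0.40 and 0.14 at days 2 and 4 without the weak arrays. GADD45A, a growth arrest and DNA damage gene, differed by 2.65 ± 0.55 at day 4 (adjusted p = 0.285), and by 2.03 without the weak arrays (adjusted p = 0.868). GADD45B, its relative, differed by -1.32 ± 0.54 at day 6 (adjusted p = 1.00, and 0.427 without the weak arrays). Of 3 upstream kinases and serum response factors 1, 2 and 2 were higher, with medians of -0.098, 0.29 and 0.0076, and -0.16 and 0.28 at days 2 and 4 without the weak arrays. MAP2K2, a kinase that activates ERK, differed by 0.93 ± 0.48 at day 2 (limma adjusted p = 0.788), and by 0.24 without the weak arrays.

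The genes whose deviations were most like the mean deviation of IER3, FOS, ATF3 and DUSP1 were searched among 7652 genes over the 21 arrays. They were SYNM, ATP13A2, TPM2 and S100B at r = 0.70 each, ZFP36 at 0.68, FLNA at 0.67, MAMU-DPA at 0.65, EDN1 and ANKMY1 at 0.63 and CPSF3L at 0.61. SYNM, TPM2 and FLNA encode cytoskeletal proteins that are abundant in smooth muscle. Their r was 0.75, 0.77 and 0.76 with ATF3 alone but 0.20, 0.32 and 0.21 with IER3. Conception day 2 replicate 2 had both the largest ATF3 deviation, 1.94, and the highest summed smooth muscle markers, 7.46. The part of that array in the r of these 3 genes with ATF3 was not tested. ZFP36, an immediate early gene that encodes an mRNA decay factor, went with DUSP1 at 0.69 and ATF3 at 0.62, and with FOS at 0.15 and IER3 at 0.086. These values are the highest of the search and are given as a description.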

How the data were processed

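Total RNA of rhesus endometrium was Cy3-labelled and hybridised to 24 Agilent 1-colour arrays, per the labels' protocols. Groups were taken from the source names, since the titles of 8 non-mated samples name another day than their other labels. The deposited scanner files hold a spot intensity that Agilent Feature Extraction had background-corrected (9.5.3.1 per the file headers, 10.7.3.1 per the submitters' processing notes). The authors also deposited a log2 value table, whose differences between arrays followed the scanner values at r = 0.976 to 0.999 over probes and whose centring stays unknown. Its column medians were -0.406 to 0.105 on the arrays that were not weak, and 2.85, 0.698 and 2.12 on the weak ones. It served as an alternative.

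Flagged spots were dropped, the kept of the 2 spots of a probe were averaged, and the level was log2 of that intensity minus the array's 75th percentile. The highest correlation among 276 pairs of arrays was 0.975, and 0 pairs were identical. Slides (9), scan days (2) and the scan range were read from the headers. On 6 arrays of slides 4 and 8 a single range was scanned. Probe levels of the 6 groups were fitted with limma 3.58.1 in R 4.3.3 (lmFit, eBayes, 18 residual degrees of freedom), two-sided, with Benjamini-Hochberg adjustment over 12780 probes at 0.05. Code was tested on simulated data. Deviations from group means were correlated in Python 3.11.15 (numpy 2.4.6, pandas 2.3.3, scipy 1.17.1), permuting arrays within groups 100000 times, two-sided, for 1 probe per gene (highest mean). Plots used matplotlib 3.10.9.

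Pairing was checked by correlating the deviations of same-numbered arrays in 9 pairs of groups. These ran from -0.674 to 0.632, and in 0 of the 9 were all above 0.1, with 3 of 4 above it for conception days 6 and 4, so the numbers were not taken as pairs. Among conception arrays they partly go with slide and scan day: replicates 3 lay on slide 7, replicates 4 on slide 8, and replicates 1 and 2 were scanned on day 2.

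Members and lists were chosen with earlier results of these data known. Besides the members, the 10 genes most like their mean deviation are named, and of each list the 2 genes with the smallest p between cycle types or in the interaction. 1 gene this rule names is not reported here. Genes were named by the files, or through gene IDs, accessions and synonyms in the RefSeq gene table (assembly T2T-MMU8v2.0). Its coordinates were not used. JUN, JUNB and the fosB-like probe lie outside the rule on gene names. Alternatives were another background correction, normalization, source of values, filters on dim probes, weak arrays left out or down-weighted, slide, scan day, scan range and replicate blocks, 1 probe per gene, and each array left out.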

Additional observations from a re-analysis of the deposited data

Results flagged for a closer look

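Within a group of 4 arrays, 5 of 54 combinations of probe and group held an array that stood apart from the others by Dixon's criterion, which sets the gap to the nearest array against the range of the group. Chance alone marks about 5% of groups. Conception day 6 replicate 3 stood apart for IER3 with both probes, at 5.25 and 5.06 against 3.19 and 3.02 for the next array. That array had 616 spots marked as outliers by the scanner software, against at most 50 on any other, but 0 of the IER3 spots were among them. The array also had the highest mean level of heat shock genes, 4.91, and its part in the IER3 value was not tested. Conception day 6 replicate 1 stood apart for DUSP1, at -0.113 against -1.66. Conception day 2 replicate 3 stood apart for JUNB, at -3.59 against -4.21, where all 4 arrays were above background. Non-mated day 2 replicate 3, the weakest array, stood apart for EGR1, at -0.284 against -5.66, without being above background there.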

How the results depend on the processing

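The count of member probes past the threshold stayed at 0 in all 11 comparisons under the 14 alternatives and the 24 fits that left out an array. IER3 stayed higher in conception cycles in all of these fits, for each day and for their mean. The mean ran from 0.70 to 1.25, with a lowest limma adjusted p of 0.284. The lowest limma adjusted p on a single day was 0.172, at day 6 for A_01_P000583. With quantile normalization the mean-of-days difference was 1.04. ATF3, FOS and DUSP1 kept their sign at day 4 in all of these fits, and JUN was negative at day 6 in all of them.

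JUNB at day 2 turned positive with normexp correction (0.37), quantile normalization (0.043), without the weak arrays (1.12), with array weights (1.54), slide as a block (0.85), without the weak arrays with the replicate block (1.11) and with scan range as a block (0.34). At day 4 JUNB was 0.51 with quantile normalization, and at day 6 0.27 with slide as a block. Its mean over the days was 0.12 without the weak arrays, 0.29 with array weights, 0.15 with slide as a block and 0.16 without the weak arrays with the replicate block. No conception array of day 6 was above background for JUNB. Its day 6 value and these means thus rest in part on readings that were not above background. LOC722417 turned to 0.13 at day 2 with normexp correction, to 0.21 and 0.13 at day 4 without the weak arrays and with array weights, and for the mean of the days to 0.087, 0.19 and 0.067 without the weak arrays, with array weights, and without the weak arrays with the replicate block. FOS turned to -0.63 at day 2 and -0.43 for the mean of the days with slide as a block, and to 0.043 at day 6 with array weights. JUN for the mean of the days turned to -0.062 with normexp correction, -0.24 without the weak arrays, -0.046 with array weights, -0.21 without the weak arrays with the replicate block and -0.21 with scan range as a block. The cause was not tested.

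Leaving out each array in turn gave -0.83 to 1.12 for JUNB at day 2, -0.11 to 1.09 for ATF3 at day 2, -0.032 to 0.68 for LOC722417 and -0.81 to 0.065 for FOS at day 6, and, for the mean of the days, -0.086 to 0.23 for JUN and -0.020 to 0.24 for DUSP1. The median SD within groups of the 4 member genes was 0.83, and 0.57 within scan day 2, with fewer arrays. With the replicate block the count of member probes called was 0, the IER3 mean-of-days difference 1.12 (adjusted p = 0.422), the median r of pairs 0.017 and the median SD 0.83, and no call changed. Over all probes, array weights raised the calls from 2 to 214 for conception day 6 against day 2, from 0 to 31 for day 4 against day 2, from 1 to 13 between cycle types at day 6, from 1 to 4 for the mean of the days and from 0 to 1 at day 2 and for the interaction. Leaving the weak arrays out gave 213, 1, 3 and 2 for the first 4 of these, and leaving out single arrays at most 4. The single scan range, used on 5 conception arrays and 1 non-mated array, partly goes with the cycle type. With 4 arrays a group, and 2 or 3 in the groups without weak arrays, the number of arrays limits the precision.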
